A study of Homo sapiens with 6 samples.

Results

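Notch is a signalling system between touching cells, in which ligands on the surface of a cell bind receptors on its neighbour. Binding lets proteases cut the receptor, and the released intracellular domain enters the nucleus, where it joins the DNA-binding protein RBPJ and a Mastermind coactivator and switches on target genes, best known among them the HES and HEY repressors. In the melanocyte lineage the pathway is known for maintaining melanocyte precursors, and in melanoma Notch receptors have been linked to growth and spread. The genes described here were chosen by name as 10 members of this system: the receptors NOTCH1, NOTCH2 and NOTCH3, the ligands JAG1, JAG2, DLL1 and DLL3, the target genes HES1 and HEY1, and the coactivator MAML2. They are 10 of the 24526 genes in the count table, and all 10 passed the filter on low counts. NOTCH3 is a gene that the study itself names. The study picked it from the differentially expressed genes of this same comparison and reports a decrease by quantitative RT-PCR.

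RNA of WM266.4, an established human melanoma cell line, was sequenced 48 h after transfection in 3 libraries of control cells (neg.si) and 3 libraries of cells with RIPK4 silencing (RIPK4.si). The neg.si cells received Silencer Select Negative Control No. 2, called control in the labels, and the RIPK4.si cells received a Silencer Select siRNA specific for RIPK4, a serine/threonine kinase. Because 1 RIPK4 siRNA was used, the effect of losing RIPK4 and an effect of that siRNA on other transcripts cannot be told apart. All cells were of the same line, and a transfected culture also holds cells that took up no siRNA, whose RNA is in the same library.

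Counts on genes summed to between 28464057 and 31688095 per library. RIPK4 itself was at 85.8, 76.5 and 54.7 CPM (the count of a gene scaled to the normalized size of its library) in neg.si replicates 1, 2 and 3 and at 19.9, 16.7 and 21.5 CPM in RIPK4.si. The log2 fold change of RIPK4 was -1.90 (SE 0.203, adjusted p = 0.0102 in edgeR's quasi-likelihood test over all genes). Its adjusted p was 0.106 with neg.si replicate 2 left out and 0.094, 0.0622 and 0.0725 with RIPK4.si replicate 1, 2 or 3 left out. Of the melanocytic markers MITF, SOX10, PMEL, MLANA, TYR, DCT and TYRP1, 7 of 7 were present, and their summed level ran from 3010 to 3150 CPM in neg.si and from 2170 to 2190 CPM in RIPK4.si. The lower sum came from TYR, DCT and PMEL, which did not overlap between groups and of which edgeR called PMEL (280 ± 31.5 and 114 ± 8.10 CPM, SD, n = 3 each, adjusted p = 0.0111). DESeq2 called TYR (adjusted p = 0.0417), DCT (0.00361) and PMEL (4.36e-10), and edgeR after GC trend removal called DCT (0.0198) and PMEL (0.00163). The groups overlapped in MITF, SOX10, MLANA and TYRP1, with log2 fold changes of 0.04, -0.15, 0.06 and 0.36. With each library left out in turn these ran from -0.05 to 0.15, -0.29 to -0.01, -0.02 to 0.16 and 0.24 to 0.49. Markers of other cell types were low apart from COL1A2 of the fibroblast list and KRT10 of the keratinocyte list. Of the keratinocyte markers 3 of 5 were analysed, at a summed 10.2 to 11.6 CPM in neg.si and 11.8 to 16.1 CPM in RIPK4.si, with KRT5 and KRT14 at 0 in 4 of the 6 libraries. Of the fibroblast markers 5 of 5 were present, at 634 to 818 and 512 to 1040 CPM, of the endothelial markers 3 of 4, at 2.30 to 3.86 and 2.56 to 3.53 CPM, and of the immune markers 4 of 5, at 0.387 to 1.23 and 0.409 to 1.45 CPM. The part of the lower TYR, DCT and PMEL levels in the values below was not tested. The neg.si libraries stood apart from each other in GC trend, meaning the rank correlation over genes between GC content and transcript level in a library, relative to the mean of all libraries. It was 0.562 in replicate 1, 0.0805 in replicate 2 and -0.554 in replicate 3, against -0.0834 to 0.173 in the RIPK4.si libraries. Genes are not independent replicates, so these correlations are a description, and values with this trend removed from each library are given for the main results below.

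The motif TGGGAA is the core of the sequence that RBPJ recognises. It was searched for on both strands of promoter windows of 300 bases, from 250 bases before to 50 bases after the start of each gene in RefSeq on GRCh38.p14. Of 35116 promoters, 8439 (24.0%) held it at least once and 1333 (3.80%) held it at least 2 times. Windows were at hand for 7 of the 10 genes, all but DLL1, DLL3 and HEY1. Only HES1 among these 7 held the motif, at 2 places on the strand of the gene, 84 and 70 bases before the start. Of the other Notch pathway genes introduced below, 12 of the 60 with a window held it. A match of these letters is a description and not a binding site.

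The HES1 promoter window, shown as that of the target gene with 2 matches, lies at chr3:194135898-194136197 on the plus strand of GRCh38.p14. The NOTCH3 window, shown because NOTCH3 was the gene of the 10 with the largest log2 fold change, lies at chr19:15200946-15201245 on the minus strand. Both are written 5′ to 3′ along the gene, with TGGGAA in capitals, and the letters TGGGAA do not occur in the NOTCH3 window.
HES1 promoter: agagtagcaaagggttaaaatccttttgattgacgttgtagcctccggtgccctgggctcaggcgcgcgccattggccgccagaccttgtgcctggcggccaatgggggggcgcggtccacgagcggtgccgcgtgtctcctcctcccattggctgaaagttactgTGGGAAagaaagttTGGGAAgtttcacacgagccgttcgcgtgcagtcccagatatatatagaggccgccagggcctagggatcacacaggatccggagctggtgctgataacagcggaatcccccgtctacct
NOTCH3 promoter: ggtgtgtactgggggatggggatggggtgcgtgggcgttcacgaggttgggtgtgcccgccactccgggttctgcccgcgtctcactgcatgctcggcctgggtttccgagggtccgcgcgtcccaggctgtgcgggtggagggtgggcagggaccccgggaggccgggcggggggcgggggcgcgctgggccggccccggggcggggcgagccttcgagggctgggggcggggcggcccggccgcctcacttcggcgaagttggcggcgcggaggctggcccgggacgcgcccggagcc

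To compare the sites of the HES and HEY family, 30 bases around each TGGGAA on the strand of the gene are given 5′ to 3′ along the gene for HES1 and for the family members HES4, HES5, HEY2 and HEYL. The levels of HES4, HEY2 and HEYL are described with the other target genes, and HES5 was not analysed here. HES5, HEY2 and HEYL also held the motif on the opposite strand of the window, which is not shown. The capitals mark the motif, and the number is the distance of its first base before the start of the gene.
HES1 (-84, chr3:194136052-194136081, plus strand): tgaaagttactgTGGGAAagaaagtttggg
HES1 (-70, chr3:194136066-194136095, plus strand): ggaaagaaagttTGGGAAgtttcacacgag
HES4 (-76, chr1:1000156-1000185, minus strand): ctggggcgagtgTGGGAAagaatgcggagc
HES5 (-80, chr1:2530326-2530355, minus strand): ggccgcggagtgTGGGAAcggccgcggcgc
HEYL (-99, chr1:39639725-39639754, minus strand): aggaaagggcccTGGGAAagggcggtggcg
HEY2 (-3, chr6:125749617-125749646, plus strand): agagttgcggcgTGGGAAagagccgctagg

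With RIPK4 silencing, NOTCH3 fell and HEY1 was lower without overlap between groups, JAG2 and NOTCH2 were higher without overlap, and HES1, JAG1, DLL1, DLL3, NOTCH1 and MAML2 overlapped between groups. In edgeR 1 of the 10 genes, NOTCH3, was called, a word used here for an adjusted p under 0.05. Over all 16297 genes tested, 125 (0.767%) were called, 64 of them (0.393%) falling. DESeq2 and edgeR after GC trend removal each called 2 of the 10, NOTCH3 and HEY1, both falling. Of all genes DESeq2 called 2.78%, with 1.38% falling, and edgeR after GC trend removal called 3.28%, with 1.64% falling. An unadjusted edgeR p under 0.05 was found for 3 of the 10, against 10.8% of all genes. In 4 of the 10 (NOTCH2, NOTCH3, JAG2 and HEY1) the CPM of the 2 groups did not overlap, against 17.6% of all genes. With 10 genes these counts are small, and the median log2 fold change of the 10, -0.08, was close to that of all genes, -0.02. The 10 genes were chosen with results of these data known, so the counts are a description.

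**Figure D1:**
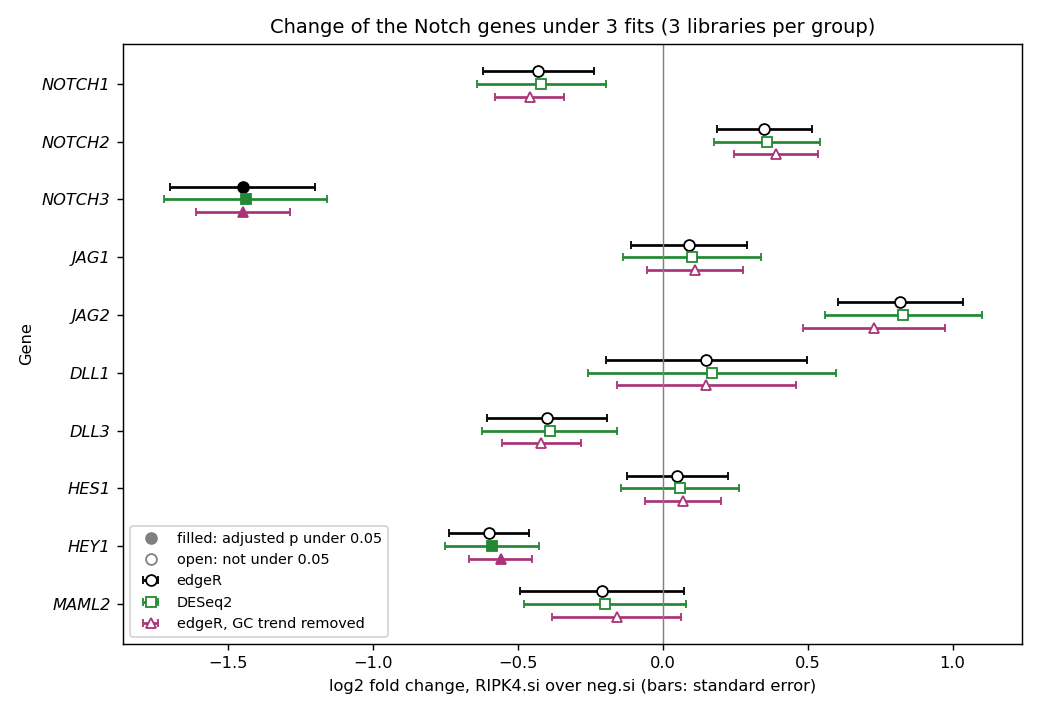
Log2 fold change of RIPK4.si over neg.si (horizontal axis) for each of the 10 Notch genes under edgeR (circles), DESeq2 (squares) and edgeR with the GC trend of each library removed (triangles), with bars for the standard error and filled symbols for an adjusted p under 0.05. NOTCH3 is filled in all 3 fits, HEY1 with DESeq2 and after GC trend removal, and the other genes in none.

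Among the receptors, single-pass membrane proteins that are both the sensor and the messenger of the pathway, only NOTCH3 was called. NOTCH3 (chromosome 19 of GRCh38, 15159038 to 15200995, minus strand) had 371, 299 and 205 counts in neg.si replicates 1, 2 and 3 and 108, 92 and 109 counts in RIPK4.si. This corresponded to 12, 9.96 and 6.45 CPM in neg.si and 3.68, 3.18 and 3.50 CPM in RIPK4.si. The groups did not overlap, and the RIPK4.si libraries lay low and close together while the neg.si libraries were spread out. NOTCH3 fell from 9.46 ± 2.80 CPM (SD, n = 3) to 3.46 ± 0.252 CPM (SD, n = 3), to 36.6% of the neg.si level. This was a log2 fold change of -1.45 (SE 0.25, 95% confidence interval -2.01 to -0.89, adjusted p = 0.0404 with edgeR). In bulk RNA, fewer cells with NOTCH3 transcript and less transcript per cell cannot be told apart.

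The edgeR call of NOTCH3 was lost when any of 5 of the 6 libraries was left out. The adjusted p was 0.0661 and 0.257 with neg.si replicate 1 or 2 left out, 0.184, 0.169 and 0.253 with RIPK4.si replicate 1, 2 or 3 left out, and 0.00293 with neg.si replicate 3 left out, while the log2 fold change stayed between -1.66 and -1.23. DESeq2 gave a log2 fold change of -1.44 (adjusted p = 6.12e-05). The exons of NOTCH3 are GC-rich, at 62.4% GC. With the GC trend of each library removed, the SD of its log2 CPM among the neg.si libraries went from 0.455 to 0.0919. Among the RIPK4.si libraries it went up from 0.104 to 0.181. The log2 fold change remained -1.45 (SE 0.161, adjusted p = 0.00375 with edgeR).

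NOTCH1 (chromosome 9, 136494433 to 136546048, minus strand), whose exons have a GC content of 63.2%, was at 39.5, 33.9 and 25 CPM in neg.si and at 23.4, 23.6 and 26.0 CPM in RIPK4.si. The groups overlapped, since neg.si replicate 3 lay under RIPK4.si replicate 3. The log2 fold change was -0.43 (95% confidence interval -0.86 to 0, adjusted p = 0.463 with edgeR), and with the GC trend removed it was -0.46 (adjusted p = 0.0749). It was -0.26 with neg.si replicate 1 left out and -0.59 with neg.si replicate 3 left out. NOTCH2 (chromosome 1, 119911553 to 120100779, minus strand) was at 443, 556 and 563 CPM in neg.si and at 603, 650 and 732 CPM in RIPK4.si. All RIPK4.si libraries lay above all neg.si libraries, but the log2 fold change of 0.35 (95% confidence interval -0.02 to 0.71) did not pass the test (adjusted p = 0.499 with edgeR, 0.473 with DESeq2 and 0.206 with edgeR after GC trend removal). The NOTCH2NL genes are partial copies of NOTCH2, with which reads of the shared stretch can be confused. Their summed counts were between 0.808% and 2.09% of the NOTCH2 counts of a library.

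**Figure D2:**
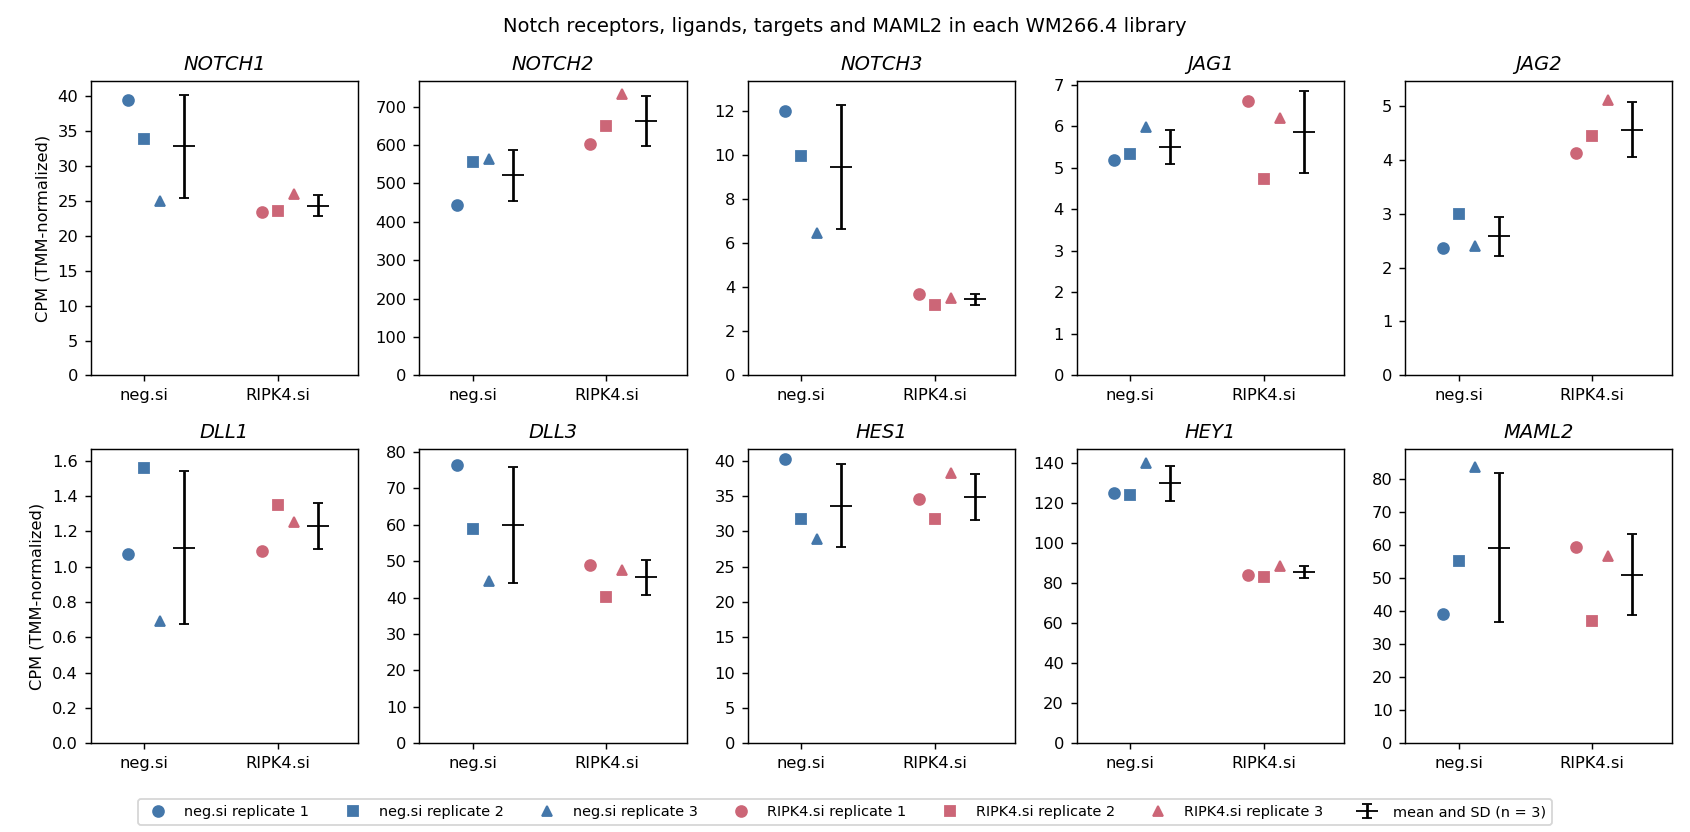
CPM of each of the 10 Notch genes (vertical axes, each starting at 0) in the 3 neg.si and 3 RIPK4.si libraries, with the symbol giving the replicate number and the bar the mean and SD (n = 3). The 3 RIPK4.si points of NOTCH3 (3.18 to 3.68 CPM) and HEY1 (83.2 to 88.7 CPM) lie under all neg.si points, those of JAG2 and NOTCH2 lie above, and the groups of the other 6 genes overlap.

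Levels can be compared between genes only per length, so CPM was divided by the kilobases of annotated exon. On this scale NOTCH2 was the most abundant receptor at 31.1 ± 4.03 CPM per kilobase (SD, n = 3) in neg.si, NOTCH1 stood at 2.62 ± 0.585 and NOTCH3 at 1.01 ± 0.297. NOTCH3 transcript was thus a small part of the receptor transcript, with 4.12%, 2.86% and 1.89% of the summed level of the 3 receptors in neg.si and 1.02%, 0.824% and 0.806% in RIPK4.si. The share was lower in all 3 RIPK4.si libraries, with a mean of 0.884% ± 0.120 (SD, n = 3) against 2.96% ± 1.12 (SD, n = 3), which gave p = 0.1 in a two-sided exact permutation test, the smallest p that 3 libraries against 3 allow. The exons of NOTCH2 have a GC content of 46.6%, under that of NOTCH3, so the share can move with the GC trend. With the trend removed, NOTCH3 held 3.29%, 2.88% and 2.64% in neg.si and 1.11%, 0.737% and 0.807% in RIPK4.si, again without overlap. NOTCH2 held most of the rest, with 85.7% to 92.6% of the summed level in neg.si and 94.1% to 94.7% in RIPK4.si. NOTCH1 and NOTCH3 have nearly equal GC content, and the ratio of their levels per kilobase differed little within a group, at 2.47, 2.56 and 2.90 in neg.si and 4.78, 5.57 and 5.57 in RIPK4.si. Relative to NOTCH1, therefore, NOTCH3 was lower in every RIPK4.si library than in any neg.si library, without overlap.

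**Figure D3:**
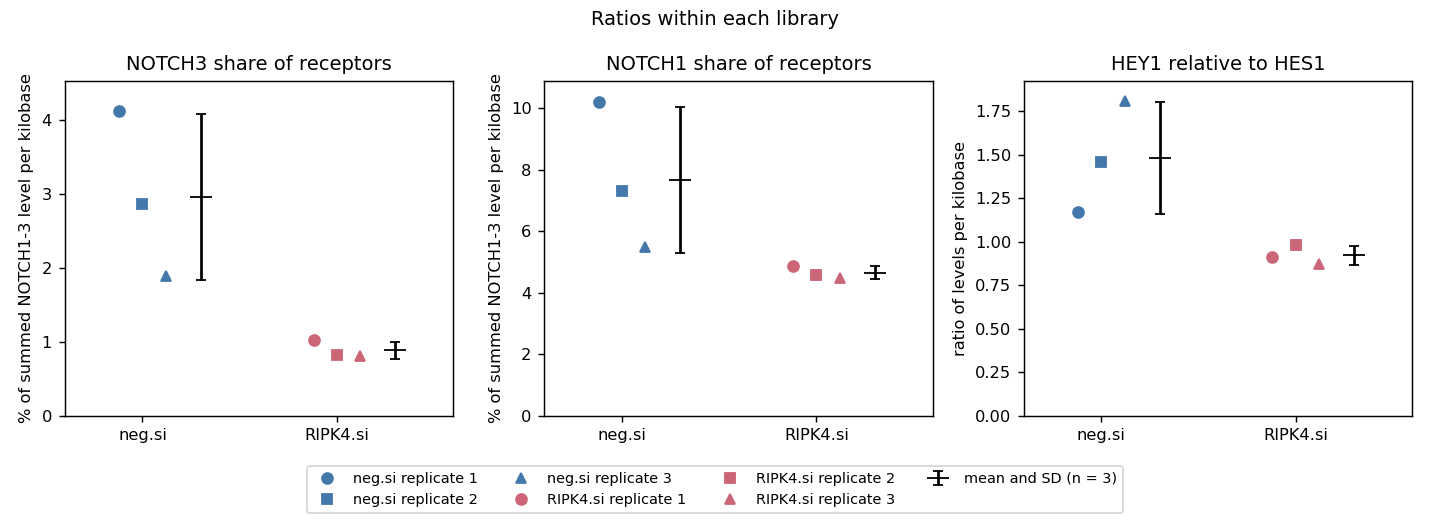
Ratios within each library for neg.si and RIPK4.si: the percent of the summed NOTCH1, NOTCH2 and NOTCH3 level per kilobase held by NOTCH3 (left) and NOTCH1 (middle), and the HEY1 level per kilobase divided by that of HES1 (right), with points for libraries and bars for the mean and SD (n = 3). NOTCH3 held 1.89% to 4.12% in neg.si and 0.806% to 1.02% in RIPK4.si. The HEY1 to HES1 ratio was lower in all RIPK4.si libraries (0.87 to 0.981) than in any neg.si library (1.17 to 1.81). The size of this ratio depends on the exon length taken for HEY1.

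None of the 4 ligands was called by edgeR, DESeq2 or edgeR after GC trend removal, and JAG2 alone had an unadjusted edgeR p under 0.05. JAG2 (chromosome 14, 105140982 to 105168824, minus strand), a ligand of the Jagged type, was at 2.36, 3.0 and 2.39 CPM in neg.si and at 4.12, 4.43 and 5.11 CPM in RIPK4.si, from 73 to 159 counts per library. The exons of JAG2 share 469 bases (7.33%) with a long noncoding RNA on the same strand. All RIPK4.si libraries lay above all neg.si libraries. Its log2 fold change was 0.82 (SE 0.215, 95% confidence interval 0.34 to 1.30), with an adjusted p of 0.148 in edgeR and 0.0649 in DESeq2. With the GC trend removed it was 0.73 (adjusted p = 0.163 with edgeR), and the SD of log2 CPM among the neg.si libraries went up from 0.189 to 0.466. The exons of JAG2 have a GC content of 64.2%, and its neg.si values did not follow the GC trend that those of NOTCH3 followed.

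JAG1, the other Jagged ligand, was at 5.20, 5.33 and 5.98 CPM in neg.si and at 6.61, 4.74 and 6.21 CPM in RIPK4.si. The groups overlapped, and a log2 fold change of 0.09 had an interval from -0.36 to 0.54 (adjusted p = 0.951 with edgeR). It was 0.00 with RIPK4.si replicate 1 left out and 0.23 with RIPK4.si replicate 2 left out. The level of JAG2 per kilobase divided by that of JAG1 was 0.659, 0.818 and 0.581 in neg.si and 0.907, 1.36 and 1.20 in RIPK4.si, without overlap, and also did not overlap with the GC trend removed (0.518 to 0.834 and 0.985 to 1.19).

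DLL1, a Delta-like ligand, had 22 to 47 counts per library, the fewest of the 10 genes. It was at 1.07, 1.56 and 0.693 CPM in neg.si and at 1.09, 1.35 and 1.25 CPM in RIPK4.si, so the groups overlapped, and at this depth the log2 fold change of 0.15 had a wide interval from -0.63 to 0.94 (adjusted p = 0.951 with edgeR). The exons of DLL1 share 370 bases (9.69%) with FAM120B on the opposite strand, and since reads were counted without regard to strand, reads of the 2 genes there cannot be told apart.

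DLL3 is a divergent Delta-like ligand, known to stay mostly inside the cell and not to activate the receptors of neighbouring cells. At 22.9 ± 6.10 CPM per kilobase (SD, n = 3) in neg.si it was by far the most abundant ligand transcript, with 93.4% to 96.0% of the summed level of the 4 ligands in neg.si and 90.8% to 92.0% in RIPK4.si. It was at 76.5, 59.0 and 44.6 CPM in neg.si and at 49.1, 40.2 and 47.6 CPM in RIPK4.si. The groups overlapped because of neg.si replicate 3. The log2 fold change was -0.40 (95% confidence interval -0.86 to 0.07, adjusted p = 0.559 with edgeR), and with the GC trend removed -0.42 (adjusted p = 0.156). With neg.si replicate 1 left out it was -0.17, and with neg.si replicate 3 left out -0.57. Removal of the trend took the SD of its log2 CPM from 0.389 to 0.0381 among the neg.si libraries and from 0.155 to 0.240 among the RIPK4.si libraries.

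The target genes HES1 and HEY1 encode repressors of transcription of the basic helix-loop-helix type. HEY1 (chromosome 8, 79764010 to 79767857, minus strand) was at 125, 124 and 140 CPM in neg.si and at 84.1, 83.2 and 88.7 CPM in RIPK4.si. All RIPK4.si libraries lay under all neg.si libraries by a wide margin compared with the spread within each group. The mean went from 130 ± 9.17 CPM to 85.4 ± 2.94 CPM (SD, n = 3 each), or 65.7% of the neg.si level, a log2 fold change of -0.60 (SE 0.137, 95% confidence interval -0.91 to -0.29). In edgeR the adjusted p of 0.097 did not pass the threshold, also with each library left out in turn (0.0887 to 0.489). HEY1 did pass with DESeq2, as a log2 fold change of -0.59 (adjusted p = 0.0156), and with edgeR after GC trend removal, as -0.56 (adjusted p = 0.0277).

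HES1 (chromosome 3, 194136148 to 194138732, plus strand), the gene whose window with 2 TGGGAA is printed above, was at 40.2, 31.8 and 29.0 CPM in neg.si and at 34.6, 31.8 and 38.3 CPM in RIPK4.si. The groups overlapped almost fully. The log2 fold change was 0.05 (95% confidence interval -0.34 to 0.44, adjusted p = 0.972 with edgeR). The HEY1 level per kilobase divided by that of HES1 was 1.17, 1.46 and 1.81 in neg.si and 0.912, 0.981 and 0.870 in RIPK4.si, without overlap. With the GC trend removed it was 1.31, 1.47 and 1.55 against 0.903, 1.03 and 0.853, also without overlap. The ratio divides HEY1 by 5487 bases of exon, more than the HEY1 span printed above holds, so it may be too low in every library. The same length was used in every library, so the lack of overlap does not depend on it.

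MAML2, a Mastermind-like coactivator, varied widely within groups, and its exons share 549 bases (7.71%) with a long noncoding RNA on the opposite strand. It was at 39.0, 55.1 and 83.5 CPM in neg.si and at 59.4, 36.9 and 56.8 CPM in RIPK4.si. The highest and the second lowest of the 6 values were both neg.si libraries. The log2 fold change was -0.21 (95% confidence interval -0.85 to 0.42, adjusted p = 0.898 with edgeR), and -0.16 after GC trend removal (adjusted p = 0.812).

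In neg.si the order of the mean levels per kilobase was NOTCH2 (31.1), HEY1 (23.6), DLL3 (22.9), HES1 (16.3), MAML2 (8.31), NOTCH1 (2.62), NOTCH3 (1.01), JAG1 (0.592), JAG2 (0.404) and DLL1 (0.290). The neighbours HEY1 and DLL3, DLL3 and HES1, and JAG2 and DLL1 overlapped between libraries, so their order is not settled, and the other neighbours did not overlap. HEY1 was divided by 5487 bases of exon, more than its deposited span (79764010 to 79767857) holds. Its level per kilobase may therefore be too low, and its place, also relative to NOTCH2, is not settled. In RIPK4.si NOTCH3 (0.367) stood between JAG1 (0.629) and DLL1 (0.322) and JAG2 (0.712) stood before JAG1, where NOTCH3 overlapped DLL1 and JAG2 overlapped JAG1. HEY1 (15.6) stood behind DLL3 (17.4) and HES1 (17.0) in RIPK4.si, with overlap between neighbours among these 3. This place of HEY1 rests on the same exon length and is not settled either. The order is for transcripts per annotated exon length and takes no account of which isoforms were present.

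**Figure D4:**
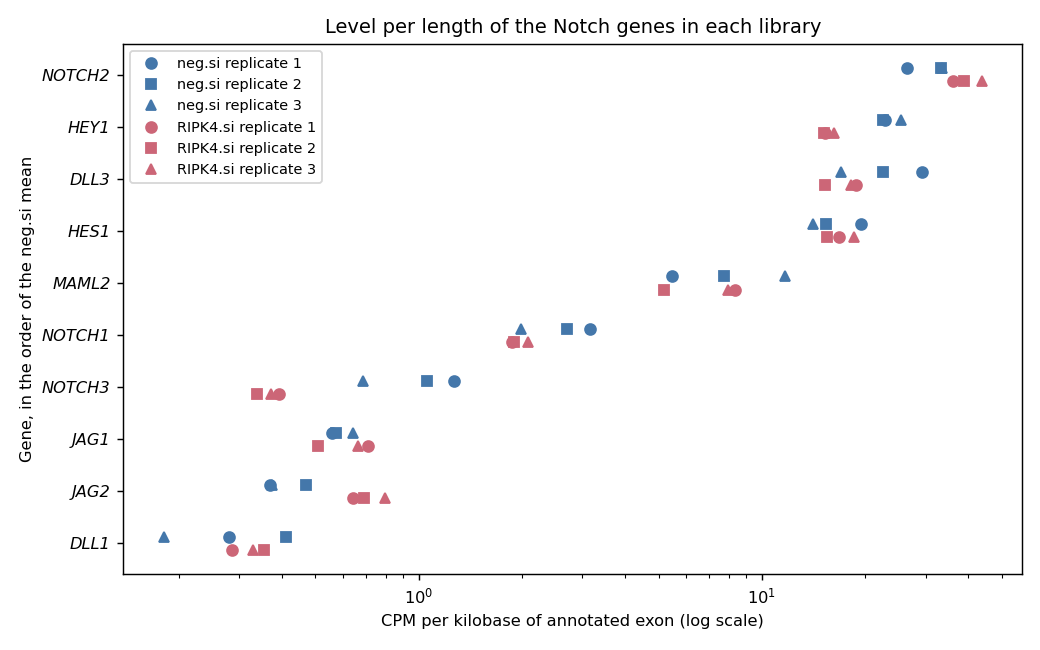
CPM per kilobase of annotated exon (log scale) of the 10 Notch genes in each of the 6 libraries, ordered from top to bottom by the neg.si mean. The levels span from 31.1 (NOTCH2) to 0.290 (DLL1) in neg.si, and the RIPK4.si points of NOTCH3 lie to the left of all its neg.si points. The place of HEY1 depends on the exon length taken for it.

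The genes whose log2 CPM followed that of NOTCH3 most closely over the 6 libraries were HTRA3, a secreted serine protease (Pearson r = 0.996), PIGG, an enzyme of GPI anchor synthesis (r = 0.993), and ABCD4, a transporter of vitamin B12 (r = 0.992). The 6 libraries share the group difference and the GC trend. HTRA3 was at 2.99 ± 0.726 CPM in neg.si and 1.27 ± 0.162 CPM in RIPK4.si (SD, n = 3 each), PIGG at 67.2 ± 2.05 and 61.3 ± 0.759 CPM, and ABCD4 at 21.4 ± 0.911 and 18.5 ± 0.0916 CPM. None of the 3 was called by edgeR, with adjusted p of 0.0902, 0.843 and 0.714, and HTRA3 was called by DESeq2 (adjusted p = 0.0176) and by edgeR after GC trend removal, at a log2 fold change of -1.24 (adjusted p = 0.0217).

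Beyond the 10 genes, 74 further genes of the pathway were taken from lists by role, of which 71 were analysed and 66 passed the filter on low counts. CNTN1, MFAP5 and HES5 were not analysed here. DLL4, DLK1, NEURL1, HES7 and NRARP had too few counts to be tested. edgeR called 1 of the 66 (1.52%), HDAC1, which rose, and 9 had an unadjusted p under 0.05. The groups did not overlap in 14 of the 66 (21.2%), and the median log2 fold change was -0.09. These shares lie near those of all genes given above.

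HDAC1 (chromosome 1, 32292083 to 32333635, plus strand) encodes a histone deacetylase that corepressors bring to RBPJ at target genes in the absence of Notch signal, and it also serves in many other repressor complexes. It was at 54.5, 58.2 and 64.4 CPM in neg.si and at 128, 104 and 103 CPM in RIPK4.si. All RIPK4.si libraries lay well above all neg.si libraries. The log2 fold change was 0.92 (SE 0.155, 95% confidence interval 0.57 to 1.27, adjusted p = 0.0397 with edgeR and 4.3e-05 with DESeq2), and with the GC trend removed it was 0.94 (adjusted p = 0.00887). The edgeR call was kept without neg.si replicate 3 (adjusted p = 0.0152) and lost without any of the other libraries (up to 0.279). HDAC2, a near relative, differed by -0.07 on the log2 scale (95% confidence interval -0.39 to 0.24). Of the 14 corepressors, HDAC1 was the 1 that edgeR called (7.14%, against 0.767% of all genes), with a median log2 fold change of -0.11. TLE4, a Groucho-type corepressor that HES proteins recruit, was at 10.3 ± 1.26 CPM in neg.si and 6.48 ± 0.593 CPM in RIPK4.si, without overlap, a log2 fold change of -0.67 (adjusted p = 0.167 with edgeR). After GC trend removal edgeR also called TLE2 of the same family, at -0.65 (adjusted p = 0.0434), where the groups overlapped in CPM, against -0.63 (adjusted p = 0.359) without that removal and an adjusted p of 0.338 with DESeq2. With the trend removed 2 of the 14 were thus called (14.3%, against 3.28% of all genes). HDAC1 (14.9) and CIR1 (11.3), which links RBPJ to histone deacetylases, had the highest corepressor levels per kilobase in neg.si.

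The 9 genes of receptor cleavage encode the proteases that process Notch receptors. Both surface proteases known to cut Notch outside the membrane had lower values in RIPK4.si without overlap between groups, and neither was called by edgeR. ADAM10, the protease that cuts ligand-bound Notch, was at 329, 389 and 567 CPM in neg.si and at 294, 200 and 262 CPM in RIPK4.si, which is -0.76 on the log2 scale (SE 0.231, adjusted p = 0.219 with edgeR). It was called after GC trend removal, at -0.72 (adjusted p = 0.0423 with edgeR), and had an adjusted p of 0.0544 in DESeq2. ADAM17, its relative, was at 49.5, 67.8 and 86.8 CPM in neg.si and at 43.8, 25.8 and 45.1 CPM in RIPK4.si, or -0.83 on the log2 scale (adjusted p = 0.241 with edgeR), and -0.79 after GC trend removal (adjusted p = 0.0604). The exons of ADAM17 share 1645 bases (10.3%) with IAH1 on the opposite strand. APH1B, a subunit of the gamma-secretase complex that releases the intracellular domain, was at 41.4 ± 6.27 CPM in neg.si and 28.8 ± 0.796 CPM in RIPK4.si (log2 fold change -0.53, adjusted p = 0.222 with edgeR and 0.0554 after GC trend removal). The other gamma-secretase subunits overlapped between groups, with log2 fold changes from -0.36 for NCSTN to 0.63 for PSENEN. The exons of PSENEN share 425 bases (31.3%) with a long noncoding RNA on the opposite strand. They also share 285 bases (21%) with a protein-coding gene on the same strand. ADAM10 (26.8) and the pair FURIN and APH1A (26.4 each) had the highest levels per kilobase of the list in neg.si. Of these 9 genes edgeR and DESeq2 called 0, and edgeR after GC trend removal called 1, ADAM10, against 3.28% of all genes. An unadjusted p under 0.05 was found for 3 of the 9 with either tool, against 10.8% of all genes with edgeR, and the groups did not overlap in 3 of the 9 (33.3%), against 17.6% of all genes.

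In the remaining lists edgeR and DESeq2 called 0 genes, and the counts at an unadjusted p under 0.05 stand against 10.8% of all genes with edgeR. The 4 tested other receptors and ligands, of which 0 had an unadjusted p under 0.05, were low, led per kilobase in neg.si by MFAP2 (4.95) and DNER (1.38), and NOTCH4 was at 0.434 ± 0.210 CPM in neg.si, so NOTCH4 added little to the receptor transcript. Of the 5 genes of receptor glycosylation, POFUT1 (49.2) and POGLUT1 (5.10), which put the first sugars on Notch, had the highest levels per kilobase, and 1 of the 5, the Fringe gene LFNG, had an unadjusted p under 0.05. LFNG overlapped between groups, with a log2 fold change of -0.93 (adjusted p = 0.423 with edgeR), or -1.23 to -0.56 with each library left out in turn. Of the 15 genes of ubiquitination and endocytosis, which control how ligand and receptor are taken up, DTX3L (17.0) and MIB1 (10.8) led per kilobase. DTX1, a ubiquitin ligase of the Deltex family that acts on Notch and is itself a known Notch target in some cells, was at 3.35 ± 0.456 CPM in neg.si and 2.03 ± 0.0602 CPM in RIPK4.si (SD, n = 3 each), without overlap, a log2 fold change of -0.72 (adjusted p = 0.222 with edgeR). It was the only gene of that list with an unadjusted p under 0.05.

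Of the 10 genes of the nuclear complex 0 had an unadjusted p under 0.05 with edgeR, and their log2 fold changes ran from -0.34 to 0.25. RBPJ, the DNA-binding partner of the receptors, was at 68.2 ± 14.7 CPM in neg.si and 79.7 ± 6.25 CPM in RIPK4.si (log2 fold change 0.22, 95% confidence interval -0.18 to 0.63, and 0.10 to 0.40 with each library left out in turn). SNW1 (40.2) and KAT2B (26.5), coactivators with broad roles, led this list per kilobase in neg.si. The levels of MAML1 and MAML3 per kilobase, 5.53 and 6.32, were near that of MAML2, with log2 fold changes of 0.25 and -0.29.

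Of the 9 tested other target genes 0 were called, 1 had an unadjusted edgeR p under 0.05 (SOX9) and 7 had a positive log2 fold change, with a median of 0.16. Of all 16297 genes tested, 7596 had a positive log2 fold change and 10.8% had that unadjusted p. SOX9, a transcription factor of neural crest and melanocyte cells, was at 22.9 ± 2.47 CPM in neg.si and 34.0 ± 6.33 CPM in RIPK4.si (SD, n = 3 each), without overlap, a log2 fold change of 0.57 (adjusted p = 0.255 with edgeR). CCND1 (126), which encodes cyclin D1, and MYC (18.9) had the highest levels per kilobase in neg.si, and both are also driven by many other signals. The family members of HES1 and HEY1 with the sites printed above were low. HEY2 was at 6.61 ± 0.506 CPM in neg.si and 6.78 ± 0.774 CPM in RIPK4.si (log2 fold change 0.04, 95% confidence interval -0.38 to 0.45). HEYL was at 0.730 ± 0.213 CPM and HES4 at 0.452 ± 0.307 CPM in neg.si, with intervals of the log2 fold change from -0.98 to 0.69 and from -0.53 to 1.70, wide at this depth. Per kilobase, HEY2 (2.46) was the highest of the HES and HEY genes after HEY1 (23.6) and HES1 (16.3) in neg.si.

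**Figure D5:**
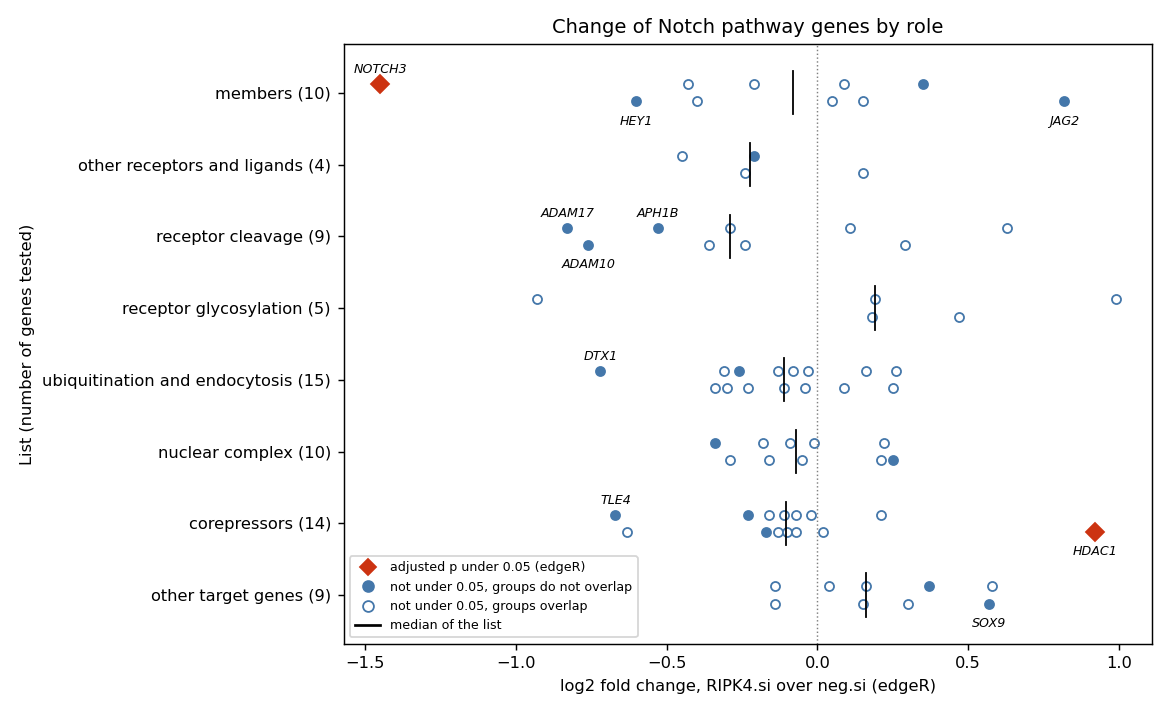
Log2 fold change of RIPK4.si over neg.si with edgeR (horizontal axis) for the 10 Notch genes (members) and the further pathway genes that were tested, in rows by role with the number tested, and with a bar for the median of each row. Red diamonds mark an adjusted p under 0.05 (NOTCH3 and HDAC1), filled circles genes whose groups do not overlap, and open circles genes whose groups overlap.

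Of the partial NOTCH2 copies, NOTCH2NLA was at 4.86 ± 0.998 CPM in neg.si and 2.80 ± 0.351 CPM in RIPK4.si, without overlap, a log2 fold change of -0.79 (adjusted p = 0.198 with edgeR), opposite in sign to NOTCH2. NOTCH2NLB had a log2 fold change of 0.21, and both share exon bases with NBPF genes on the same strand and can share reads with NOTCH2, so their values are uncertain.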

How the data were processed

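Libraries of poly(A) RNA were sequenced with paired ends on a BGISEQ-500 instrument. The authors removed adapters with Cutadapt, mapped the reads to GRCh38.p13 with TopHat and assigned pairs to genes with HTSeq in its unstranded setting. The deposited counts are whole read pairs per gene and library, not normalized. Columns with the authors' normalized counts, fold changes, standard errors and p-values were not used. Per the methods, the 3 libraries of a group are biological replicates, and p-values measure only the spread between them.

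The counts were fitted with edgeR 4.0.16 (filterByExpr, TMM normalization, quasi-likelihood test of the group; R 4.3.3) over 16297 genes with Benjamini-Hochberg adjustment, and a gene was called at an adjusted p under 0.05. Standard errors came from the F statistic. Start and end positions of genes were those deposited with the counts. Union exon length, exon overlap and GC content came from GENCODE release 44 on GRCh38. In that release 24416 of the 24526 gene identifiers were found, 80.62% of them with equal start and end. For HEY1 the 5487 bases of exon in that release are more than its deposited span holds. Each library's trend of log2 CPM on GC content was a lowess with span 0.3, with a prior count of 2 for log2 CPM. Promoter windows were those of RefSeq on GRCh38.p14. Python 3.11.15 was used for the rest.

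Alternatives were DESeq2 1.42.0, its size factors in edgeR, no filter, a minimum of 10 counts in each library, a replicate block, GC trend removal and each library left out in turn. The NOTCH3 share and the ratios with the GC trend removed were added after seeing the data. The 10 genes and all lists were chosen with earlier results of these data known. Genes were named if they were among the 10, RIPK4, or, in the wider lists, called, with an unadjusted p under 0.05 and no overlap between groups, or among the 2 highest per kilobase of a list, or among the 3 genes with a mean of at least 1 CPM most correlated with NOTCH3. HDAC2, NCSTN, PSENEN, NOTCH4, LFNG, RBPJ, MAML1, MAML3, HEY2, HEYL, HES4, TLE2 and NOTCH2NLB were named beside these after their values were seen.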

Additional observations from a re-analysis of the deposited data

How the results depend on the processing

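All 10 Notch genes kept their sign under every alternative except DLL1 (-0.09), MAML2 (0.12) and HES1 (-0.04) without neg.si replicate 3 and HES1 (-0.01) without RIPK4.si replicate 3, none of them called. With a library left out, DLL1 ranged from -0.09 to 0.50, HES1 from -0.04 to 0.22, MAML2 from -0.42 to 0.12 and JAG1 from 0.00 to 0.23. Among genes of the wider lists that edgeR did not call, ranges that moved by over 1.5 times included 0.10 to 0.40 for RBPJ, -0.40 to -0.10 for MAML3, -0.55 to -0.14 for NCSTN, 0.37 to 0.90 for PSENEN, -0.11 to -0.01 for HDAC2, 0.02 to 0.44 for NOTCH2NLB, 0.33 to 1.31 for HES4, -0.82 to -0.40 for TLE2, -1.23 to -0.56 for LFNG, and, with a change of sign, -0.04 to 0.13 for HEY2 and -0.36 to 0.13 for HEYL. Of 120 log2 fold changes of the 10 genes under alternatives, 109 kept direction and side of the threshold. The number of the 10 called by edgeR was 1, and it was 2 with DESeq2 and 2 with the GC trend removed, and 0 to 1 with a library left out. For the wider pathway it was 1, with 3 after GC trend removal and 0 to 1 with a library left out. Over all genes it was 125, with 430 by DESeq2, 535 after GC trend removal and 0 to 295 with a library left out. Leaving out neg.si replicate 3 gave the 295 calls, neg.si replicate 1 gave 70 and RIPK4.si replicate 2 gave 4. No gene was called on leaving out neg.si replicate 2, RIPK4.si replicate 1 or RIPK4.si replicate 3, where edgeR had 1153, 1426 and 1086 genes at an unadjusted p under 0.05. Fewer samples were fitted in these cases, and beyond that the cause was not tested. The RIPK4 log2 fold change lay between -2.06 and -1.74 with a library left out and passed the threshold in 2 of 6 cases. The NOTCH3 share of receptor level differed by -2.07 percentage points, by -2.61 to -1.49 with a library left out, by -1.22 in counts with no division by length by -11.6 with NOTCH2 left out and by -2.05 with the GC trend removed, an alternative chosen after seeing the data. The labels do not say whether same-numbered libraries were prepared together, and the data do not settle it. The correlations of same-numbered deviations from the group means were -0.242, 0.251 and 0.346, and not every library correlated best with its own number. With 3 libraries per group these deviations are not independent, and those of neg.si also hold the GC trend, so they cannot exclude pairing. With a block on the replicate number edgeR called 131 genes in all, 1 of the 10 and 1 of the wider pathway, and RIPK4 was at -1.88. Depth limits genes with few counts, DLL1 first among the 10.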
